A study of Mus musculus with 8 samples.

Results

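The 9 genes described here encode subunits of the BAF chromatin remodelling complex: Smarca4, Smarcc1, Smarcc2, Smarcb1, Arid1a, Arid1b, Actl6a, Actl6b and Bcl11a. They were chosen by Ensembl gene ID from a list of subunits, not by their values, but with earlier results of these data known. They are 9 of the 54838 gene IDs counted. All 9 had enough reads to be among the 16716 genes tested. The measurement was RNA immunoprecipitation sequencing (RIP-seq), which sequences the RNA recovered together with a protein when an antibody pulls that protein out of lysed cells. Every library came from dissociated cortical cells of C57BL/6 mouse embryos at embryonic day 12.5. Exosc10 is a nuclear exoribonuclease that trims and degrades RNA as part of the RNA exosome. In 4 libraries a rabbit antibody against it was used, and in the other 4 it was a mock pull-down with normal rabbit IgG. The labels name no transgene, mutation or drug in either group, nor whether any 2 libraries shared a litter or culture. The p-values thus measure only a spread between libraries that may be technical.

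BAF, the mammalian SWI/SNF complex, uses the energy of ATP to slide or evict nucleosomes and so opens DNA to transcription factors. Smarca4 (BRG1) is a motor ATPase of the complex, Smarcc1, Smarcc2 and Smarcb1 belong to its core, and Arid1a and Arid1b are large DNA-binding subunits of which one complex holds only one. In the developing nervous system the composition of BAF changes as cells leave the cycle: the actin-related subunit Actl6a of progenitors is replaced by its neuronal paralog Actl6b. Bcl11a (CTIP1) is a zinc-finger transcription factor of cortical neurons that is also found as a BAF subunit.

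Library totals ran from 21731971 to 34506709 counts with Exosc10 and from 20967743 to 30199449 with IgG. Values are CPM, counts scaled to a common library total with edgeR's TMM factors. Each is thus relative to the other RNA of its pull-down, and is not an exact share of the library's counts. No input RNA was analysed here, and in a bulk sample fewer cells expressing a gene cannot be told apart from less of its RNA per cell. The libraries numbered 1 were the shallowest of each group and stood apart for these genes. The summed level of the 9 mRNAs was 2514 CPM in Exosc10 library 1 against 1794 to 2096 in the other 3, and 2289 CPM in IgG library 1 against 1690.5 to 1775 in the other 3. Exosc10 library 1 held the highest Exosc10 value of 5 of the 9 genes and the lowest of 1. IgG library 1 held the highest IgG value of 6 genes and the lowest of 2. Results are therefore given with and without these libraries. What sets them apart was not tested. Since they were picked by values of the same genes, p-values and group separations without them are descriptive only.

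Of the 9 mRNAs, 1 rose in the Exosc10 pull-down and 0 fell, with edgeR's p-values adjusted over all tested genes and read at 0.05. The mRNA that rose was Actl6a. Over all tested genes 7.92% were higher and 5.82% lower, so 1 of 9 is near the background and is no result about the set. With upper-quartile scaling 0 members were called in either direction, and these shares were 6.13% and 8.19%. At an unadjusted p under 0.05, edgeR gave 3 higher members, Smarca4, Arid1b and Actl6a, against 15.8% of all tested genes, and 1 lower member, Bcl11a, against 14.8%. The fold change was above 0 for 7 of the 9 members, as it was for 47.6% of all tested genes. The median log2 fold change was 0.28 for the members and -0.03 for all tested genes. All 9 members lay in deciles 8 to 10 of mean CPM, decile 10 being the most abundant. The median of all tested genes was 0.08 in decile 8, 0.10 in decile 9 and 0.08 in decile 10. In decile 8, 213 of 1671 genes were called higher and 106 lower. The calls were 242 and 98 of 1672 genes in decile 9, and 257 and 112 of 1672 in decile 10. In 1 member, Actl6a, every Exosc10 library lay above every IgG library, which held for 10.6% of tested genes. In 0 members did every Exosc10 library lie below, against 8.45%. Without both libraries numbered 1, edgeR called 4 members higher (Smarca4, Smarcc1, Arid1b and Actl6a) and 1 lower (Bcl11a), while of all tested genes 17.1% were then higher and 15.1% lower.

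**Figure D1:**
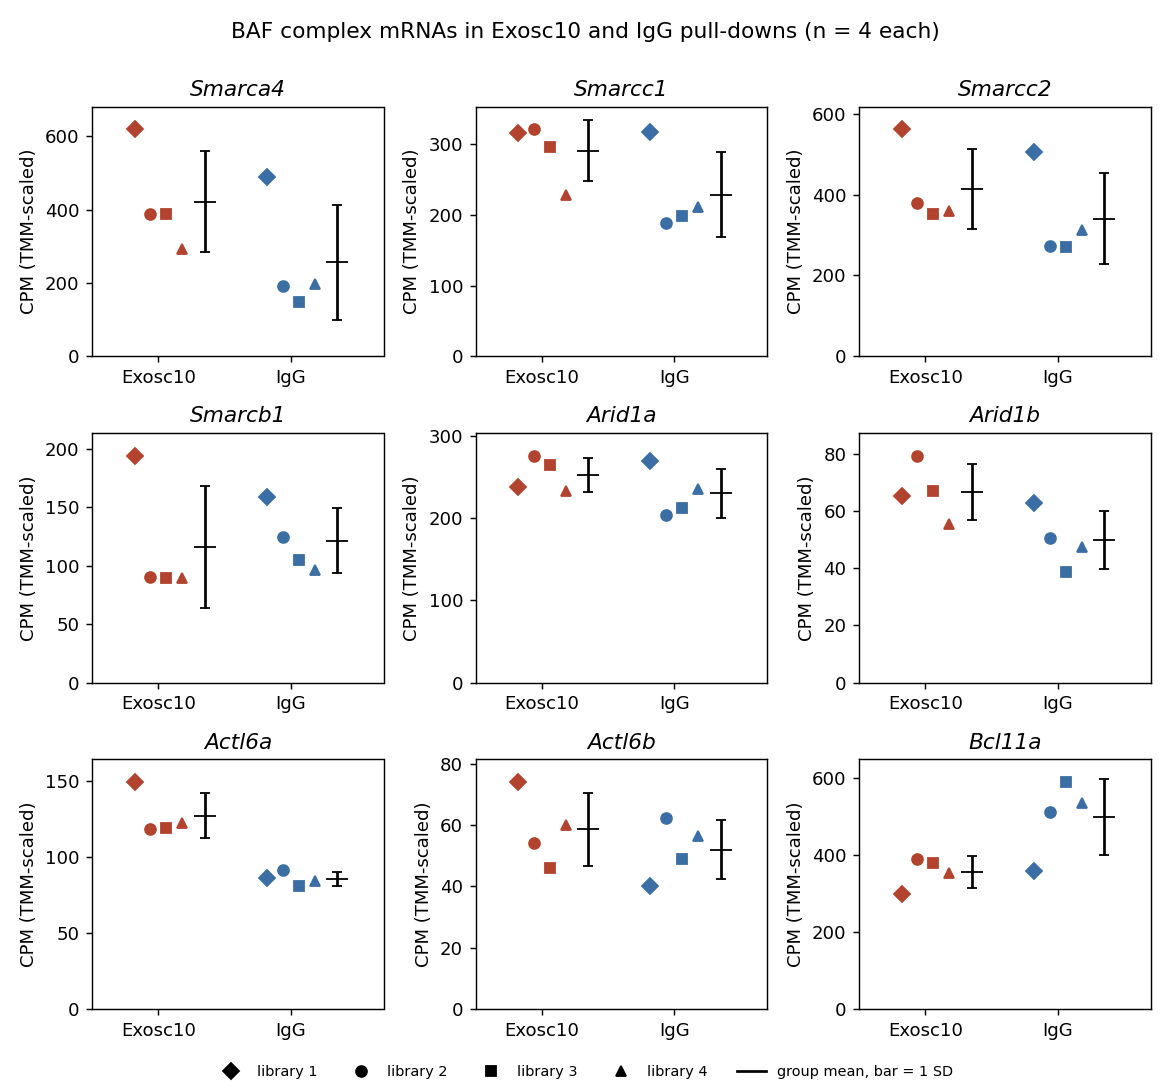
TMM-scaled CPM (y axis, from 0) of the 9 mRNAs in each Exosc10 and IgG library, with the marker showing the library number and the black bar the mean and 1 SD of 4 libraries. Actl6a is the one panel in which the groups do not overlap, and the diamonds of library 1 lie above the rest of both groups for Smarca4, Smarcc2 and Smarcb1.

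**Figure D2:**
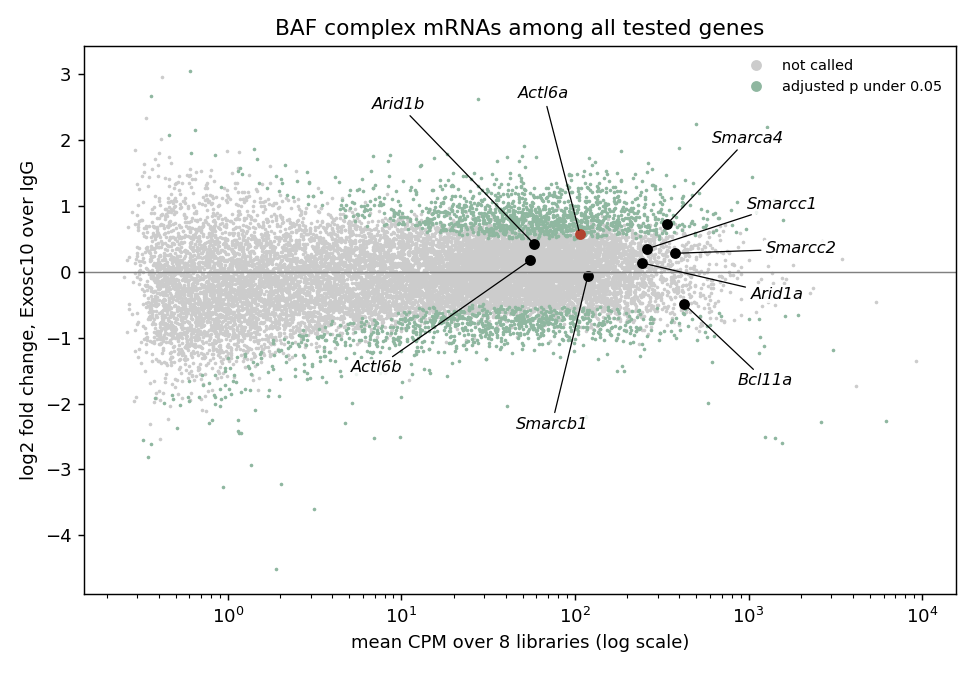
Log2 fold change (y axis) against mean CPM on a log scale (x axis) for the 16716 tested genes, with genes at an adjusted p under 0.05 in green, the 9 BAF mRNAs in black and Actl6a, the one called, in red. The members lie between -0.49 and 0.72, inside the range of other genes of their abundance.

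The one call lay in the actin-related pair of subunits. Actl6a (ENSMUSG00000027671, GRCm38.p6 chr3:32708546-32726973), the subunit of dividing progenitors, stood at 150, 118, 119 and 123 CPM in Exosc10 libraries 1 to 4. In the IgG libraries it stood at 86.3, 91.5, 80.9 and 84.1 CPM. The groups did not overlap, the lowest Exosc10 value lying well clear of the highest IgG value. The means were 127 ± 14.9 and 85.7 ± 4.48 CPM (SD, n = 4 each), a 1.49-fold difference. On the log2 scale this was 0.57 ± 0.16 (SE; 95% confidence interval 0.23 to 0.91; edgeR adjusted p = 0.0297). Among the 1672 tested genes in the same decile of abundance, 83.9% had a lower fold change, and 242 were called higher and 98 lower, so a change of this size was not unusual there. Without both libraries numbered 1 the means were 119 ± 2.93 and 84.7 ± 5.36 CPM (SD, n = 3 each), the log2 fold change was 0.49 and the edgeR adjusted p was 0.00717.

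The size of the Actl6a difference was steady while its call was not. With 1 library left out at a time the log2 fold change ran from 0.49 to 0.61. The edgeR adjusted p passed 0.05 without Exosc10 library 1, at 0.0320, and without IgG library 1, at 0.0187. It missed without Exosc10 library 2, 3 or 4, at 0.070, 0.0512 and 0.0767, and without IgG library 2, 3 or 4, at 0.0556, 0.0920 and 0.0917. With upper-quartile scaling it was 0.0528.

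Actl6b (ENSMUSG00000029712, GRCm38.p6 chr5:137553361-137569582), the paralog that takes over in neurons, stood at 74.0, 54.2, 46.0 and 59.9 CPM with Exosc10. With IgG it stood at 40.1, 62.2, 48.8 and 56.5 CPM. The 2 groups were interleaved, with the highest value in Exosc10 library 1 and the lowest in IgG library 1. The log2 fold change was 0.17, with a 95% confidence interval of -0.24 to 0.59 (edgeR adjusted p = 0.585), and it was -0.07 (interval -0.37 to 0.24, edgeR adjusted p = 0.765) without both libraries numbered 1. The interval over 8 libraries holds a fall as well as a rise of up to 1.5-fold, so these libraries do not show that Actl6b was equally recovered.

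Smarca4 (ENSMUSG00000032187, GRCm38.p6 chr9:21616106-21704230), the ATPase that drives remodelling, had the largest fold change of the 9 and was not called in the main edgeR fit. Its values were 619, 387, 389 and 293 CPM with Exosc10. They were 488, 192, 147 and 196 CPM with IgG. Each Exosc10 value lay above 3 of the IgG values, and IgG library 1 lay above 3 of the Exosc10 values. Its log2 fold change of 0.72 ± 0.34 (SE) had a 95% confidence interval of 0.0013 to 1.44, and its edgeR adjusted p was 0.163. Without IgG library 1 alone it was 1.25 (edgeR adjusted p = 0.00423). Without both libraries numbered 1 the means were 353 ± 52.7 and 177 ± 26.7 CPM (SD, n = 3 each), the groups did not overlap and the log2 fold change was 1.00, with an interval of 0.66 to 1.33 and an edgeR adjusted p of 0.000293. Without Exosc10 library 1 alone it was 0.49, with no call (edgeR adjusted p = 0.326). Leaving out IgG library 1 raised the fold change and leaving out Exosc10 library 1 lowered it, and among the fits without 1 library only that without IgG library 1 gave a call. On all 8 libraries, edgeR called Smarca4 higher with the replicate number as a block (0.83, adjusted p = 0.00443) and without a filter (0.76, adjusted p = 0.0145). So did limma-voom with sample weights (0.90, adjusted p = 0.00130). Of all tested genes 14.9%, 5.53% and 20.1% were higher in these fits. The other alternatives on 8 libraries gave no call.

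**Figure D3:**
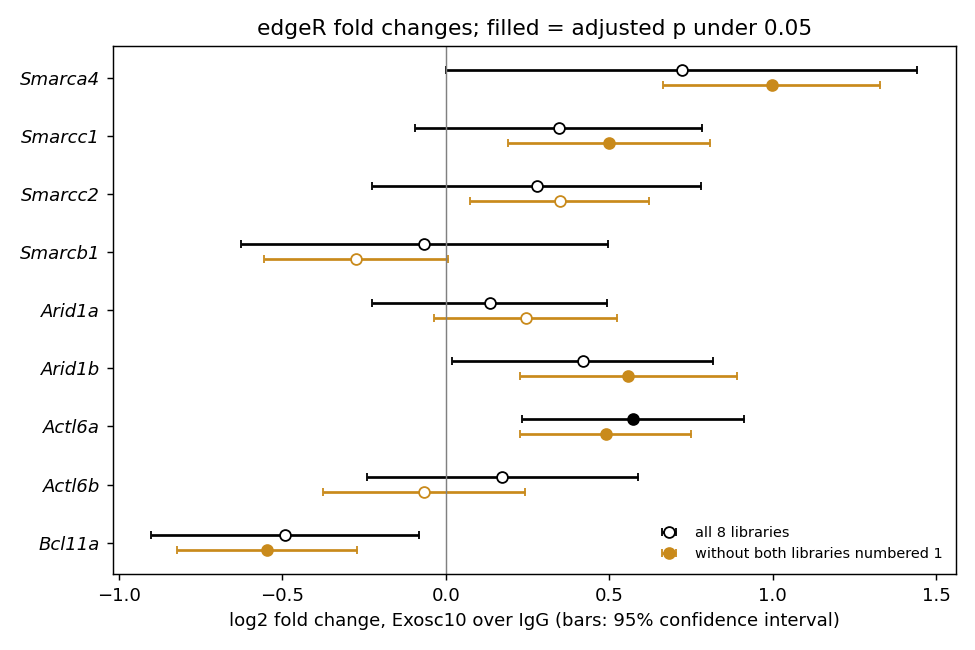
Log2 fold change of each mRNA, Exosc10 over IgG (x axis), with its 95% confidence interval, from edgeR on all 8 libraries (black) and without both libraries numbered 1 (orange), filled where the adjusted p is under 0.05. Actl6a is filled in both fits, and Smarca4, Smarcc1, Arid1b and Bcl11a are filled only in the fit on 6 libraries.

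The core scaffold pair gave weaker differences. Smarcc1 (ENSMUSG00000032481, GRCm38.p6 chr9:110132024-110240178) stood at 316, 321, 296 and 228 CPM with Exosc10. In the IgG libraries it stood at 318, 188, 198 and 211 CPM, so that only IgG library 1 reached into the Exosc10 range. On the log2 scale the difference was 0.35 (interval -0.09 to 0.78, edgeR adjusted p = 0.273), and 0.50 (interval 0.19 to 0.81, edgeR adjusted p = 0.0164) without both libraries numbered 1. Without IgG library 1 alone it was 0.55 (edgeR adjusted p = 0.0327).

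Smarcc2 (ENSMUSG00000025369, GRCm38.p6 chr10:128459182-128490591), which pairs with Smarcc1 in the core, stood at 561, 380, 353 and 360 CPM with Exosc10. With IgG it stood at 506, 274, 271 and 313 CPM. Library 1 was the highest of its group on both sides. The difference was 0.28 on the log2 scale (interval -0.22 to 0.78, edgeR adjusted p = 0.453), and 0.35 without both libraries numbered 1, where the groups did not overlap and the edgeR adjusted p was 0.0501.

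Smarcb1 (ENSMUSG00000000902, GRCm38.p6 chr10:75896769-75921614), a core subunit that anchors the complex to the nucleosome, was set apart by 1 library. Exosc10 library 1 stood at 194 CPM, while Exosc10 libraries 2 to 4 lay close together at 90.4, 89.8 and 89.5 CPM. The IgG libraries stood at 159, 125, 105 and 96.3 CPM. The highest of all 8 values was thus an Exosc10 library, and the 3 lowest were as well. The log2 fold change was -0.07 (interval -0.63 to 0.50, edgeR adjusted p = 0.897). It was -0.42 without Exosc10 library 1 (edgeR adjusted p = 0.128) and 0.10 without IgG library 1 (edgeR adjusted p = 0.821), so its direction was not settled. Without both, all 3 Exosc10 values lay below the IgG values and the log2 fold change was -0.28 (interval -0.56 to 0.01, edgeR adjusted p = 0.126).

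Arid1a (ENSMUSG00000007880, GRCm38.p6 chr4:133679008-133756769), a DNA-binding subunit, varied least of the 9 within the Exosc10 group. It stood at 238, 276, 265 and 233 CPM with Exosc10. With IgG it stood at 270, 204, 212 and 236 CPM, and the groups overlapped. Its log2 fold change was 0.13, with an interval of -0.23 to 0.49 (edgeR adjusted p = 0.631), and 0.25 (edgeR adjusted p = 0.170) without both libraries numbered 1.

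Its paralog Arid1b (ENSMUSG00000069729, GRCm38.p6 chr17:4994297-5347656) stood at 65.1, 79.3, 66.8 and 55.4 CPM with Exosc10. With IgG it stood at 62.8, 50.6, 38.5 and 47.4 CPM. In 3 of the 4 Exosc10 libraries it lay above every IgG library, the exception being Exosc10 library 4, which lay below IgG library 1. Its log2 fold change was 0.42 (interval 0.02 to 0.82, edgeR adjusted p = 0.145). It was 0.56 without IgG library 1 (edgeR adjusted p = 0.0350) and 0.56 without both libraries numbered 1 (edgeR adjusted p = 0.0130), where the groups did not overlap.

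Bcl11a (ENSMUSG00000000861, GRCm38.p6 chr11:24076564-24173558), the neuronal zinc-finger factor, had the most negative fold change of the 9. It stood at 297, 390, 379 and 352 CPM with Exosc10. In the IgG libraries it stood at 358, 512, 589 and 535 CPM. Library 1 was the lowest of its group on both sides, and IgG library 1 lay inside the Exosc10 range. In the main edgeR fit on 8 libraries the log2 fold change of -0.49 ± 0.19 (SE), interval -0.90 to -0.08, was not called (edgeR adjusted p = 0.101). On the same libraries it was called with the replicate number as a block (-0.48, edgeR adjusted p = 0.0226) and with limma-voom (-0.51, adjusted p = 0.00511). Of all tested genes 12% and 18% were lower in these fits. The log2 fold change was -0.61 without IgG library 1 (edgeR adjusted p = 0.0155). In that fit 4 members were higher and 1 was lower, against 13% and 10.7% of all tested genes. Without both libraries numbered 1 the means were 370 ± 17.2 and 540 ± 39.5 CPM (SD, n = 3 each), the groups did not overlap and the log2 fold change was -0.55 (interval -0.82 to -0.27, edgeR adjusted p = 0.00470).

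**Figure D4:**
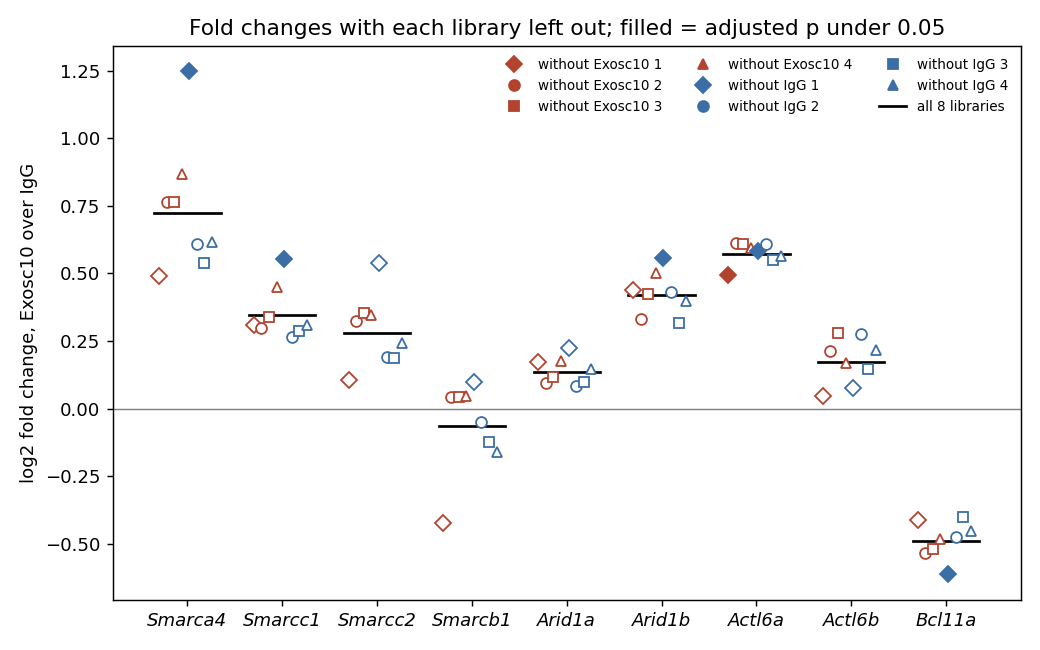
Log2 fold change (y axis) of the 9 mRNAs with each library left out in turn (markers, filled where the adjusted p is under 0.05) and with all 8 libraries (black lines). Smarca4 runs from 0.49 to 1.25 and Actl6a from 0.49 to 0.61, and the filled markers outside Actl6a all belong to the fit without IgG library 1.

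Counting error was smaller than these differences between libraries, if each read is taken as an independent molecule. The lowest count of any member in any library was 893 reads, for Actl6b in IgG library 1, and counting error alone gives a coefficient of variation of 3.35% there. The observed coefficient of variation ran from 5.22% for Actl6a with IgG, where counting error gives up to 2.28%, to 61.2% for Smarca4 with IgG. The sum of the 9 mRNAs averaged 2102 ± 302 CPM in the Exosc10 group (SD, n = 4) and 1863 ± 286 CPM in the IgG group (SD, n = 4), which overlapped. In libraries 2 to 4 the sums ran from 1794 to 2096 CPM with Exosc10 and from 1690.5 to 1775 CPM with IgG. These ranges did not overlap, which is descriptive only. Without both libraries numbered 1, the groups did not overlap in 5 members with Exosc10 above (Smarca4, Smarcc1, Smarcc2, Arid1b and Actl6a) and in 2 with Exosc10 below (Smarcb1 and Bcl11a). Of all tested genes 23.6% and 22.4% were then separated in these directions.

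The ratio of paralogous subunits was compared within each library, where scaling between libraries has no part. The ratios are of read counts, not per length, so only their difference between groups can be read. Actl6a over Actl6b was 2.02, 2.18, 2.59 and 2.05 in the Exosc10 libraries. It was 2.15, 1.47, 1.66 and 1.49 in the IgG libraries. IgG library 1 lay among the Exosc10 values, and the other 3 IgG libraries lay below all of them. The mean log2 ratio was 1.137 ± 0.16 with Exosc10 and 0.74 ± 0.26 with IgG (SD, n = 4 each), a difference of 0.40 that did not pass in the exact two-sided permutation test (p = 0.0857, adjusted over 3 pairs 0.129). Actl6a is thus not shown to differ from Actl6b in its response, although it was called and Actl6b was not. Without IgG library 1 the difference was 0.52 (exact permutation p = 0.0286, adjusted 0.0857), the smallest values that a single pair can reach. Without both libraries numbered 1 it was 0.56 (exact permutation p = 0.1, adjusted 0.3), where 3 libraries against 3 allow no smaller unadjusted p.

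Arid1a over Arid1b was 3.65, 3.48, 3.97 and 4.21 with Exosc10. It was 4.30, 4.02, 5.51 and 4.98 with IgG. Exosc10 library 4 lay above IgG library 2, and the groups otherwise separated. The log2 ratio differed by -0.29 (exact permutation p = 0.0571, adjusted 0.129), and by -0.31 without both libraries numbered 1 (exact permutation p = 0.2, adjusted 0.3). Smarcc1 over Smarcc2 was 0.564, 0.844, 0.841 and 0.632 with Exosc10. It was 0.627, 0.687, 0.731 and 0.674 with IgG, inside the wider Exosc10 range. The log2 ratio differed by 0.06 (exact permutation p = 0.686, adjusted 0.686), and by 0.14 without both libraries numbered 1 (exact permutation p = 0.4, adjusted 0.4). With 70 assignments of the libraries the smallest p is 0.0286, which adjusts to 0.0857 where a single pair of the 3 reaches it.

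**Figure D5:**
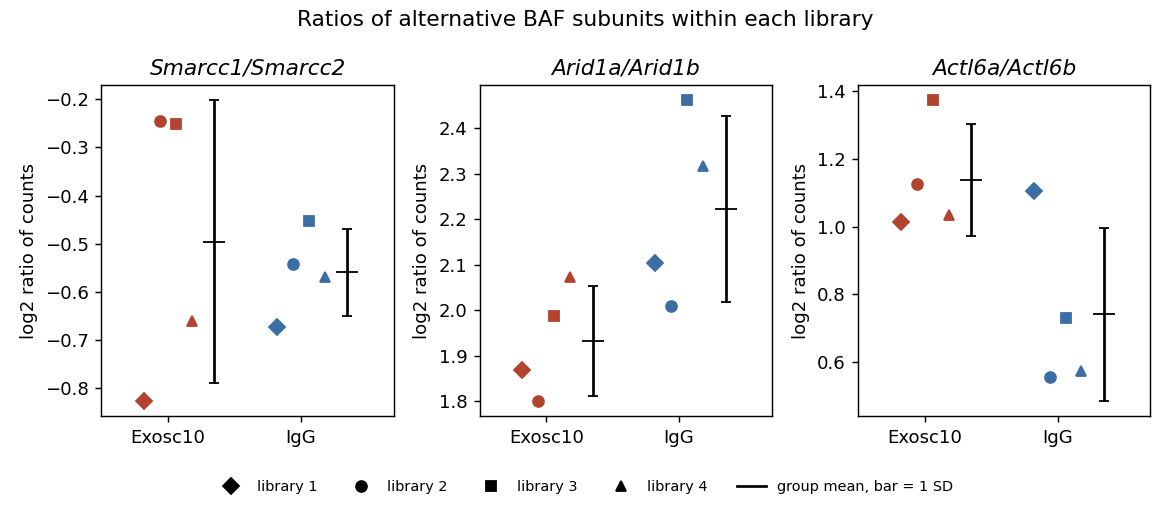
Log2 ratio of read counts (y axis, not starting at 0) of 3 pairs of paralogous BAF subunits in each library. The mean and 1 SD of 4 libraries are in black. Exosc10 and IgG libraries overlap in each pair, through library 1 of IgG for Actl6a/Actl6b.

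The gene whose profile over the 8 libraries was most like the mean log2 CPM of the 9 members was ENSMUSG00000034403 (Pearson r = 0.988), followed by ENSMUSG00000038279 (r = 0.988), among 11702 genes with a mean of at least 5 CPM. Both were picked as the highest of many correlations over the same 8 libraries, and what underlies the likeness was not tested. Neither gene was called, at an edgeR adjusted p of 0.132 and 0.215.

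By RefSeq coordinates, the span of Arid1a held the miRNA gene Mir7227, that of Arid1b the pseudogene Gm15599 and the long noncoding RNA Gm34854, and that of Bcl11a the long noncoding RNA 4930538E20Rik. Without a stated strand setting their reads cannot be told apart from those of the host where they overlap its exons. The other 6 spans overlapped no gene of that table.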

How the data were processed

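The authors deposited 1 file per library, with a raw read count for each of 54838 Ensembl gene IDs. Per the submitters' processing notes the build was mm10 and the tools were STAR 2.5.2a, featureCounts 1.5.0-p1 and bcl2fastq 2.17.1.14. The annotation, the strand setting and the treatment of multimapping and duplicate reads are not given in the sources used here, so a count need not be an independent molecule.

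The members and lists were chosen with earlier results of these data known. The named genes are all 9 members and the 2 genes of most like profile. The symbols were supplied with the members' IDs; the files and the RefSeq table (GRCm38.p6, 49997 genes, 0 Ensembl IDs) do not pair them. The 2 lists of other remodeller genes and the cell type markers, held by symbol, were therefore not tested, and the labelled tissue was not checked against markers. RefSeq positions were taken by symbol for 9 of 9 members. Positions assume that mm10 and GRCm38.p6 share coordinates on the main chromosomes.

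Genes were kept by filterByExpr (minimum count 10, minimum total 15), scaled by TMM and tested with edgeR 4.0.16 (R 4.3.3), quasi-likelihood F-test, no covariate, Benjamini-Hochberg adjustment over 16716 genes. The SE is the log2 fold change over the root of F. Ratios used a prior count of 0.5, and log2 CPM a prior count of 2. Exact permutation tests enumerated all 70 assignments. The gene test was tested on simulated data. Alternatives included DESeq2 1.42.0 and limma 3.58.1 (voom with sample weights).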

Additional observations from a re-analysis of the deposited data

Results flagged for a closer look

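In 4 of 24 groups of 4 libraries, covering the CPM of each member and the 3 log2 ratios in each group, 1 library lay further from the others than Dixon's test allows at 95%. Chance flags about 1 in 20 groups, and members of a library are not independent. Exosc10 library 1 was far above the rest for Smarcc2 (561 CPM), Smarcb1 (194 CPM) and Actl6a (150 CPM). IgG library 1 was far above the rest for Smarca4 (488 CPM). Without both libraries of that number Actl6a kept its call (edgeR adjusted p = 0.00717) and Smarca4 gained one (0.000293). Smarcc2 (0.0501) and Smarcb1 (0.126) had none. These p-values follow a choice of libraries made on the same values.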

How the results depend on the processing

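Smarca4, Smarcc1, Smarcc2, Arid1a, Arid1b, Actl6a and Bcl11a kept the sign of their fold change in each of the 18 alternatives. Smarcb1 ran from -0.42 to 0.10 with 1 library left out, and Actl6b was -0.066 without both libraries numbered 1. On all 8 libraries limma-voom called Smarca4, Smarcc1, Arid1b and Actl6a higher and Bcl11a lower. Without a filter, edgeR called Smarca4 and Actl6a higher. Against 1 member higher and 0 lower, the counts were 0 and 0 with upper-quartile scaling (6.13% and 8.19% of all tested genes), 4 and 1 with limma-voom (20.1% and 18%), 2 and 0 without a filter (5.53% and 3.49%), and 4 and 1 without both libraries numbered 1 (17.1% and 15.1%). With 1 library left out they were 0 to 4 (3.43% to 13%) and 0 to 1 (1.54% to 10.7%), the high ends without IgG library 1. The cause was not tested. They stayed at 1 and 0 with DESeq2 (12.1% and 9.87%), library totals (6.66% and 5.96%), median ratios (8.02% and 5.81%), thinning (8.12% and 6.01%) and a filter at a mean of 5 CPM (10.6% and 9.92%). Over the 18 alternatives the adjusted p of Actl6a ran from 0.00197 to 0.0920, that of Smarca4 from 0.000293 to 0.347 and that of Bcl11a from 0.00470 to 0.263. The Smarcc1/Smarcc2 difference ran from -0.020 to 0.17 with 1 library left out, and neither other ratio changed sign. The adjusted p of the ratios says nothing about stability: 3 libraries against 3 allow no exact permutation p under 0.1, and a single pair at the smallest p of 0.0286 adjusts to 0.0857.

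Across genes, the deviations of same-numbered libraries correlated at 0.34, 0.095, 0.34 and 0.22 for numbers 1 to 4. All are positive, and they do not settle whether the numbers pair libraries. The labels state no pairing, so the numbers were not taken as paired in the main fit. With the replicate block in edgeR, 2 members were higher, Smarca4 (0.83, adjusted p = 0.00443) and Actl6a (0.57, adjusted p = 0.00905), and 1 lower, Bcl11a (-0.48, adjusted p = 0.0226), against 14.9% and 12% of all tested genes. The exact sign-flip test of the ratios within numbers could not pass 0.05, since 4 pairs allow no p under 0.125. It gave an exact p of 0.125 for Arid1a/Arid1b, 0.25 for Actl6a/Actl6b and 0.625 for Smarcc1/Smarcc2. Binding by Exosc10 was neither shown nor excluded for any member, the called Actl6a included. The values are relative to the other RNA of a pull-down and are set against a mock pull-down, without input RNA.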
